A study of Mus musculus with 11 samples.

Results

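Zfp42, Triml1 and Triml2 lie next to each other on mouse chromosome 8, in the order Triml1, Triml2, Zfp42 and with no other gene of the expression table between them. They were picked by name and by this shared position, after all 3 had been seen to be low in ES cells without DNA methyltransferases, and the question asked of them was whether they move together. They are 3 of the 24016 genes in the table, and all 3 are among the 14229 genes that reached 1 RPKM (a read count scaled to transcript length and library depth) in at least 1 library and entered the tests. RNA-seq of polyA RNA had been done on 11 libraries of mouse J1 embryonic stem (ES) cells of strain 129S4/SvJae, all grown on irradiated embryonic fibroblasts with serum and LIF. WT is the J1 line. The labels give the other genotypes as TKO and DKO without spelling them out; as these names are used for J1 lines, both lack the methyltransferases Dnmt3a and Dnmt3b, and TKO lacks Dnmt1 as well, which DKO keeps. In the add-back lines Dnmt3a1 (the long Dnmt3a isoform), Dnmt3a2 (the short isoform) or Dnmt3b1 was put back into TKO or DKO cells. There were 2 libraries of TKO+Dnmt3a1, 2 of TKO+Dnmt3a2, and 1 of each of the remaining 7 groups (WT, both parent lines, TKO+Dnmt3b1 and the 3 DKO add-back lines). Below, the TKO family is TKO with its add-back lines (6 libraries) and the DKO family is DKO with its add-back lines (4 libraries). Each genotype is 1 line, so that a clonal difference and an effect of the genotype cannot be told apart. Nothing in the labels says that repeat libraries were grown separately, so that p-values measure only the spread between these libraries, which may be technical.

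Zfp42, also called Rex1, encodes a zinc finger protein that arose as a retroposed copy of Yy1, a general transcription factor. It is a classic marker of naive pluripotency: it is on in the inner cell mass and in ES cells and goes off as cells pass to the primed epiblast. Triml1 and Triml2 encode proteins like those of the tripartite motif (Trim) family, many of whose members are ubiquitin ligases, and both are known from early embryos. Dnmt3a and Dnmt3b place methyl groups on unmethylated CG dinucleotides, and Dnmt1 copies the mark to the new strand after replication.

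The promoters are shown because the enzymes removed here act on CG dinucleotides, and because the 3 genes share a neighbourhood but not a promoter. Each sequence runs from 250 bases before to 50 bases after the annotated start, 5′ to 3′ on the strand of the gene, from RefSeq on build GRCm38.p6, which is the C57BL/6J reference and not the strain of these cells. All 3 genes had an entry. Capitals mark CG dinucleotides.
Triml1, chr8:43141437-43141736, minus strand: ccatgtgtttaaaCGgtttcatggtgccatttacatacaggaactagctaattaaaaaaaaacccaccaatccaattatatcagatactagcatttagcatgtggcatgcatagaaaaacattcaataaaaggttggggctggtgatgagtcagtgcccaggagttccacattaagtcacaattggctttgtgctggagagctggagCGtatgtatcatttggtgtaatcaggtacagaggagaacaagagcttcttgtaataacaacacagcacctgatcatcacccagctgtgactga
Triml2, chr8:43180286-43180585, plus strand: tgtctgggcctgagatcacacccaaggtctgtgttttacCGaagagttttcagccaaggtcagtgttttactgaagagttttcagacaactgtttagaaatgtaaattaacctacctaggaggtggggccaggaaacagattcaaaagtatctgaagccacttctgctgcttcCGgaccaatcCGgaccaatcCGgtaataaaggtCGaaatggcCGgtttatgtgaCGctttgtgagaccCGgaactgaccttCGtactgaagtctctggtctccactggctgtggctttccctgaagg
Zfp42, chr8:43306960-43307259, minus strand: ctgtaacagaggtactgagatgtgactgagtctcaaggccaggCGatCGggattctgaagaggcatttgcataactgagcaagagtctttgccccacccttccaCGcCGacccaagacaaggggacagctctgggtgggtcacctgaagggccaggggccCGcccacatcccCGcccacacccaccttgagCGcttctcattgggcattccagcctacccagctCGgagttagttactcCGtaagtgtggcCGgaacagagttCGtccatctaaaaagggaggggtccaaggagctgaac
The Triml1 window held 2 CG dinucleotides, the Triml2 window 9 and the Zfp42 window 11, against a median of 7 over the 32851 promoters of this length. For Triml1, 23.3% of promoters held as few. For Triml2 45.8% held as many, and for Zfp42 41.4%. GC content was 41.3%, 48% and 57.7%, with a median of 52.7% over all promoters. The start of Triml2 lay 39 kb from that of Triml1 and 126 kb from that of Zfp42, and the starts of Triml1 and Zfp42 were 166 kb apart.

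A set of short motifs was searched on both strands of these windows, with positions counted from the annotated start. The octamer ATTTGCAT, the letters read by Oct4, was found in the Zfp42 window, at position -186, and in neither Triml window; 1.74% of promoters held it. The KLF box GGGTGTGG was found in the Zfp42 window at -75 on the opposite strand (3.56% of promoters), overlapping 1 of its 2 matches to the Sp1 box GGGCGG (35.7%), the one nearer to the start. The nuclear receptor motif AAGGTCA had 2 matches in the Triml2 window (4.72%). CCAAT was the only motif of the set with a match in all 3 windows: 3 in Triml1, 2 in Triml2 and 1 in Zfp42, and 37.4% of promoters held it. The YY1 core CCATNTT (16.1%) and the STAT box TTCCNGGAA (1.15%) had no match in any of them. These matches describe the letters of the windows only.

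Depth, estimated from how far apart low RPKM values lie, was 21.7 to 32.8 M reads per library. There Triml1 rested on an estimated 215 to 4045 reads per library, Triml2 on 328 to 5276 and Zfp42 on 1529 to 20974, so that counting error was at most 6.81% of a value. All 27 genes of the core and naive pluripotency list found in the table were at 1 RPKM or more in every library, and Pou5f1, which encodes Oct4, ran from 454 to 729 RPKM. Of the targeted genes, Dnmt1 was at 6.73 to 12.4 RPKM in the TKO family and at 55.9 to 74.5 in the DKO family, against 71.0 in WT. Both parent lines had less Dnmt3a than WT (22.7 RPKM), with 4.24 for TKO and 3.63 for DKO, and lines with a Dnmt3a isoform put back had 11.1 to 39.4. Dnmt3b was at 25.0 RPKM in WT and 5.68 in DKO, but at 45.3 in TKO, above WT. It was at 100.4 in TKO+Dnmt3b1 and 29.6 in DKO+Dnmt3b1. With a Dnmt3a isoform put back, Dnmt3b was at 13.3 and 14.7 RPKM in the DKO lines, above DKO. In the TKO lines with a Dnmt3a isoform it was at 20.9 to 44.4, below TKO. A value per gene does not show whether a deleted exon is present, so for Dnmt3b it does not check the label, and TKO here means the libraries labelled so. The families also differed in Y-linked RNA: Uba1y was at 0.019 RPKM or less in WT and the TKO family and at 5.42 to 14.0 in the DKO family. The summed level of 30 fibroblast markers stood apart in the Dnmt3b1 libraries, at 4376 (TKO+Dnmt3b1) and 3281 RPKM (DKO+Dnmt3b1), against 382 to 1646 elsewhere, and that of the macrophage markers did too, at 318 and 292 RPKM, against 13.6 to 116 elsewhere. No fibroblast marker was listed at 0 in any library, and 7 macrophage markers were in DKO+Dnmt3a2.

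All 3 genes were lower in every library of the TKO family than in WT and in every library of the DKO family. Triml1 stood between in the DKO add-back lines, at 25.3% to 41.1% of WT. Zfp42 was at 222 RPKM in WT and at 47.3 in TKO. It was at 47.6 and 36.5 RPKM in the TKO+Dnmt3a1 libraries, at 42.2 and 49.1 in the TKO+Dnmt3a2 libraries and at 39.8 in TKO+Dnmt3b1. DKO had 182 RPKM, and the lines derived from it had 335 (Dnmt3a1), 415 (Dnmt3a2) and 237 (Dnmt3b1). The 6 TKO family values thus lay close together and far below the rest, while the 3 DKO add-back lines stood above both DKO and WT. Zfp42 ranked 216th of all genes by level in WT, 1618th in TKO and 116th in DKO+Dnmt3a2.

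Triml1 was at 67.4 RPKM in WT and 7.40 in TKO. It was at 7.18 and 5.06 RPKM with Dnmt3a1 put back into TKO, at 5.83 and 7.02 with Dnmt3a2 and at 5.37 with Dnmt3b1. DKO had 40.1 RPKM, and its add-back lines had 24.2 (Dnmt3a1), 27.7 (Dnmt3a2) and 17.1 (Dnmt3b1). Here WT was the highest library and DKO the next, and every DKO add-back line was below DKO.

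Triml2 was at 111 RPKM in WT and 17.7 in TKO. Its TKO add-back values were 13.8 and 10.2 RPKM (Dnmt3a1), 11.02 and 13.5 (Dnmt3a2) and 10.3 (Dnmt3b1). DKO had 98.1 RPKM, and its add-back lines had 85.5 (Dnmt3a1), 91.2 (Dnmt3a2) and 61.0 (Dnmt3b1). The order of the 11 libraries was the same for Triml2 as for Triml1. In these bulk samples, fewer cells with a transcript and less RNA per cell cannot be told apart.

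**Figure D1:**
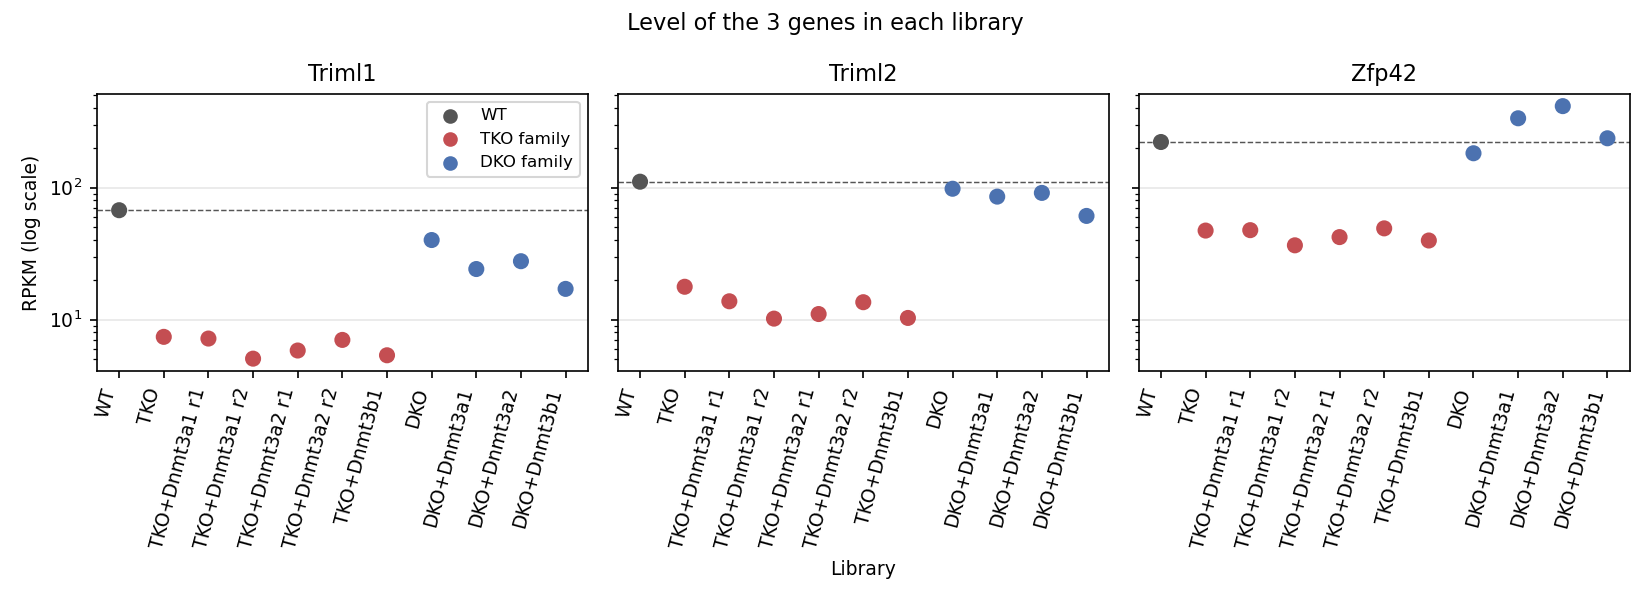
Level of Triml1, Triml2 and Zfp42 in each of the 11 libraries, in RPKM on a log axis; each point is 1 library (r1 and r2 are the libraries of a line with 2), grey is WT, red the TKO family, blue the DKO family, and the dashed line is the WT level. Every red point lies below every blue point, and in the Zfp42 panel the 3 DKO add-back lines lie above the WT line.

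Libraries of 1 line differed by up to 1.42-fold for Triml1, 1.35-fold for Triml2 and 1.30-fold for Zfp42, which gives a scale for the steps between neighbours in the order of levels. No step within the TKO family was wider than that for any of the 3 genes. The widest step was the one between the families: the lowest DKO family value was 2.31 times the highest TKO family value for Triml1, 3.44 times for Triml2 and 3.71 times for Zfp42. For Triml1 the steps from WT to DKO (1.68-fold) and from DKO to DKO+Dnmt3a2 (1.45-fold) were also wider. So was the step from DKO+Dnmt3a1 to DKO+Dnmt3b1 for Triml2 (1.40-fold) and for Zfp42 (1.42-fold). WT, DKO and DKO+Dnmt3b1 did not differ beyond this spread between neighbours in Zfp42, and neither did WT, DKO, DKO+Dnmt3a2 and DKO+Dnmt3a1 in Triml2. The mean was 42.1 ± 7.83 RPKM for Zfp42 in TKO+Dnmt3a1 and 45.7 ± 4.91 in TKO+Dnmt3a2 (SD, n = 2 each).

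Because the genes were named for their fall from WT to TKO, that difference is given without a test. As a share of the WT level, Zfp42 was at 21.3% in TKO, Triml2 at 16.0% and Triml1 at 11%. Over the whole TKO family the shares ran from 16.5% to 22.2% for Zfp42, from 9.17% to 16.0% for Triml2 and from 7.50% to 11% for Triml1. On the scale of log2(RPKM + 0.5), used for all changes below, TKO minus WT was -2.22 for Zfp42, -2.61 for Triml2 and -3.10 for Triml1, while the median of all genes was 0.13. DKO minus WT, which uses the same WT library, was -0.28 for Zfp42, -0.18 for Triml2 and -0.74 for Triml1, with a median of 0.04 over all genes. As shares of WT, Zfp42 was at 82.2% in DKO, Triml2 at 88.4% and Triml1 at 59.4%. In the DKO add-back lines Zfp42 ran from 107% to 187% of WT, Triml2 from 55% to 82.2% and Triml1 from 25.3% to 41.1%. Over the 27 tested genes of the naive list, which does not hold Zfp42, the median change was -0.14 in TKO minus WT and -0.15 in DKO minus WT.

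The comparison of the families asks whether levels differ between them, whatever enzyme was put back. Each family descends from 1 parent line, so that its libraries are not replicates of Dnmt1 status. Loss of Dnmt1, the parent clone, Y-linked RNA and the Dnmt3b level of the parent lines cannot be told apart here. All 3 genes were higher in the DKO family than in the TKO family. Zfp42 was higher by 2.73 ± 0.18 (log2 change ± SE, 10 libraries, limma with Benjamini-Hochberg adjustment over all genes tested, adjusted p = 0.000181). Triml2 was higher by 2.68 ± 0.12 (limma, adjusted p = 6.76e-05), and Triml1 by 1.97 ± 0.15 (limma, adjusted p = 0.000221). In this comparison 21.0% of all genes tested passed (6.66% higher and 14.4% lower), with a median change of -0.11. The TKO library is among those that the choice of the genes used. Without it the differences were 2.94 ± 0.14 for Zfp42, 2.74 ± 0.13 for Triml2 and 1.87 ± 0.15 for Triml1 (limma, adjusted p = 0.000126, 0.000126 and 0.000851), with 22.8% of genes passing. The TKO add-back lines left in this fit were made from TKO cells, so that it is not independent of the choice of the genes. Without both Dnmt3b1 libraries all 3 passed too (limma, adjusted p = 0.00119, 0.000374 and 0.00104). Of 30 fibroblast markers, 29 had lower values in the DKO family, with a median of -0.65, and 1 of them passed; their part in the result was not tested.

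The median level of the genes of chromosome 8 differed between libraries, and other chromosomes were not set beside it. The median deviation of 771 genes of the chromosome, the members left out, was 0.17 in WT, 0.25 in TKO, between -0.21 and -0.02 in the TKO add-back libraries and between -0.01 and 0.06 in the DKO family. With this median subtracted in each library, the family difference was 2.66 for Zfp42, 2.61 for Triml2 and 1.91 for Triml1 (limma, adjusted p = 0.000107, 4.26e-05 and 0.000473), where 20.8% of genes passed.

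In TKO cells with an enzyme put back, all 3 genes kept to the low levels of TKO. The TKO library, the baseline here, is among those that the choice of the genes used. Changes against it are thus not independent of that choice. Against TKO, the 3 TKO add-back lines together were at -0.16 for Zfp42, -0.61 for Triml2 and -0.30 for Triml1, and none of the 3 passed (limma, fit of 9 group means; 0% of genes passed). Triml1 and Triml2 were below TKO in 5 of 5 TKO add-back libraries, and Zfp42 in 3 of 5. By line, the change of Zfp42 was -0.18 ± 0.23 with Dnmt3a1, -0.05 ± 0.23 with Dnmt3a2 and -0.25 ± 0.26 with Dnmt3b1. The largest of the 9 single changes in TKO was that of Triml2 with Dnmt3b1, at -0.76 ± 0.28 (limma, adjusted p = 0.192). Unadjusted p (limma) was under 0.05 for 1369 genes with Dnmt3a1, 1227 with Dnmt3a2 and 3318 with Dnmt3b1. Of the 3 genes, only Triml2 with Dnmt3b1 was among these. With the median of the chromosome subtracted, the change over the 3 lines became 0.19 for Zfp42 and 0.05 for Triml1, so that the sign of these values depends on that scaling. The lines with long and short Dnmt3a, the only ones with 2 libraries each, differed by less than the SE: TKO+Dnmt3a2 minus TKO+Dnmt3a1 was 0.12 ± 0.19 for Zfp42, 0.04 ± 0.20 for Triml2 and 0.08 ± 0.22 for Triml1 (limma, adjusted p = 0.928, 0.981 and 0.966), in a comparison where 0.00703% of genes passed.

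In DKO cells the values of the genes differed in sign. Zfp42 was above DKO in 3 of 3 add-back lines, and Triml1 and Triml2 were below it in 3 of 3 on the RPKM scale. Zfp42 minus its DKO level was 0.88 ± 0.26 with Dnmt3a1, 1.18 ± 0.26 with Dnmt3a2 and 0.38 ± 0.26 with Dnmt3b1 (limma, adjusted p = 0.291, 0.133 and 0.385). Triml1 was at -0.72 ± 0.31, -0.53 ± 0.31 and -1.21 ± 0.31 (limma, adjusted p = 0.369, 0.390 and 0.102), and Triml2 at -0.20 ± 0.28, -0.10 ± 0.28 and -0.68 ± 0.28 (limma, adjusted p = 0.764, 0.867 and 0.192), of which the second was 0.00990 with median ratio scaling. None of these 9 changes passed, in comparisons where 0.0281% of genes passed with Dnmt3a1, 0.0281% with Dnmt3a2 and 0% with Dnmt3b1. At an unadjusted p under 0.05, limma gave 2012, 2788 and 3873 genes there, among them Zfp42 with Dnmt3a1 and Dnmt3a2 and Triml1 with Dnmt3b1. Over the 3 lines together the change was 0.81 ± 0.21 for Zfp42, -0.33 ± 0.23 for Triml2 and -0.82 ± 0.25 for Triml1 (limma, adjusted p = 0.119, 0.411 and 0.142; 0% of genes passed). The fibroblast marker sum was 1264 RPKM in DKO, and 975 (Dnmt3a1), 382 (Dnmt3a2) and 3281 (Dnmt3b1) in the add-back lines; its part in these values was not tested.

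The difference between families was itself put to a test. This test and that of any enzyme put back also use the TKO library as a parent, and so are not independent of the choice of the genes. The add-back change in DKO exceeded that in TKO by 0.97 ± 0.30 for Zfp42 (limma, adjusted p = 0.422), and was 0.29 ± 0.32 for Triml2 and -0.52 ± 0.34 for Triml1 (limma, adjusted p = 0.774 and 0.613). None of these passed, no gene of the table did (0%), and 1486 genes had an unadjusted p under 0.05, among them Zfp42. Over both families, any enzyme put back minus the parent line was 0.29 ± 0.22 for Zfp42, -0.49 ± 0.15 for Triml2 and -0.56 ± 0.18 for Triml1 (limma, adjusted p = 0.425, 0.0864 and 0.0922). Here 3.93% of all genes passed (1.12% higher, 2.81% lower) and none of the 3 did. The Zfp42 value was -0.19 without DKO and 0.81 without TKO (limma, adjusted p = 0.667 and 0.0651). Triml1 was at -0.32 without DKO (limma, adjusted p = 0.499), and in none of these fits did a gene of the 3 pass.

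**Figure D2:**
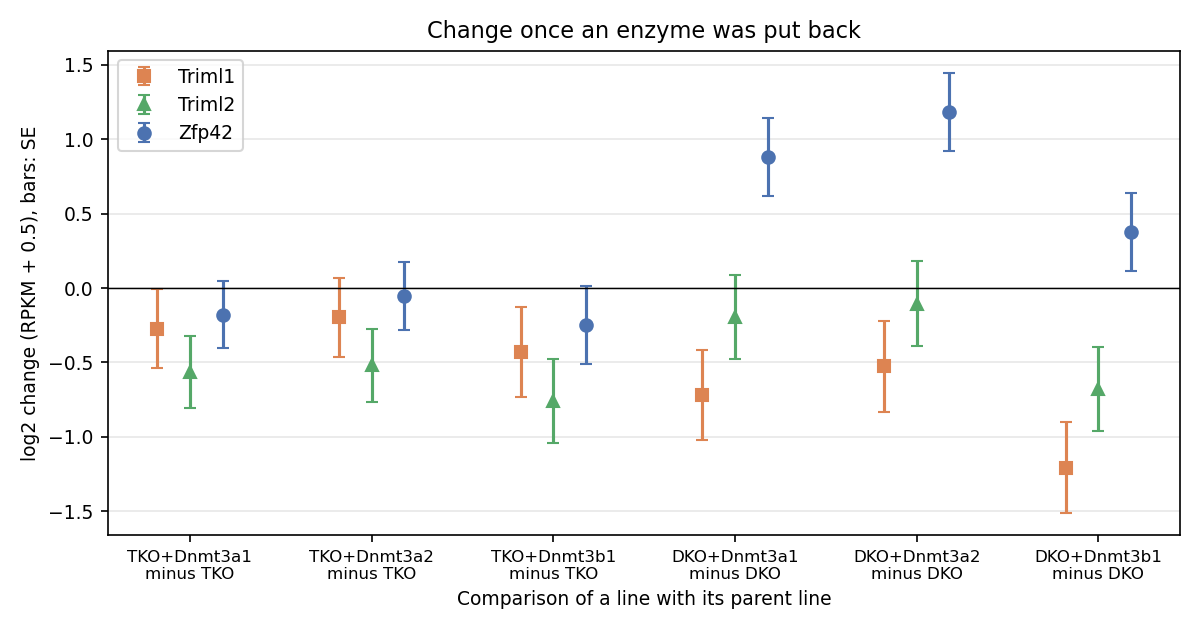
Change of each gene from the parent line to each add-back line, as log2(RPKM + 0.5) with bars of 1 SE from the fit of 9 group means. Zfp42 lies above 0 in the 3 DKO lines and Triml1 and Triml2 below it, while all 9 points of the TKO lines lie below 0, of which 5 lie above it once the median of the chromosome is subtracted; no point passed the adjusted test.

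The ratios of the genes within a library need no scaling between libraries. They are ratios of RPKM values, so that a comparison between libraries does not depend on the transcript lengths. Zfp42 over Triml1 was 3.29 in WT, 6.39 in TKO and 4.55 in DKO. It was between 6.63 and 7.41 in the 5 TKO add-back libraries, close to TKO, and 13.9 (Dnmt3a1), 15.0 (Dnmt3a2) and 13.9 (Dnmt3b1) in the DKO add-back lines. Zfp42 over Triml2 was 2.0 in WT, 2.67 in TKO, 3.46 to 3.86 in the TKO add-back libraries, 1.86 in DKO and 3.88 to 4.55 in the DKO add-back lines. In this ratio, as in Zfp42 over Triml1, the add-back libraries of both families lay above their parents. Triml2 over Triml1 moved least: it was 1.65 in WT, 2.4 in TKO, 1.89 to 2.01 in the TKO add-back libraries, 2.45 in DKO and 3.29 to 3.57 in the DKO add-back lines.

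**Figure D3:**
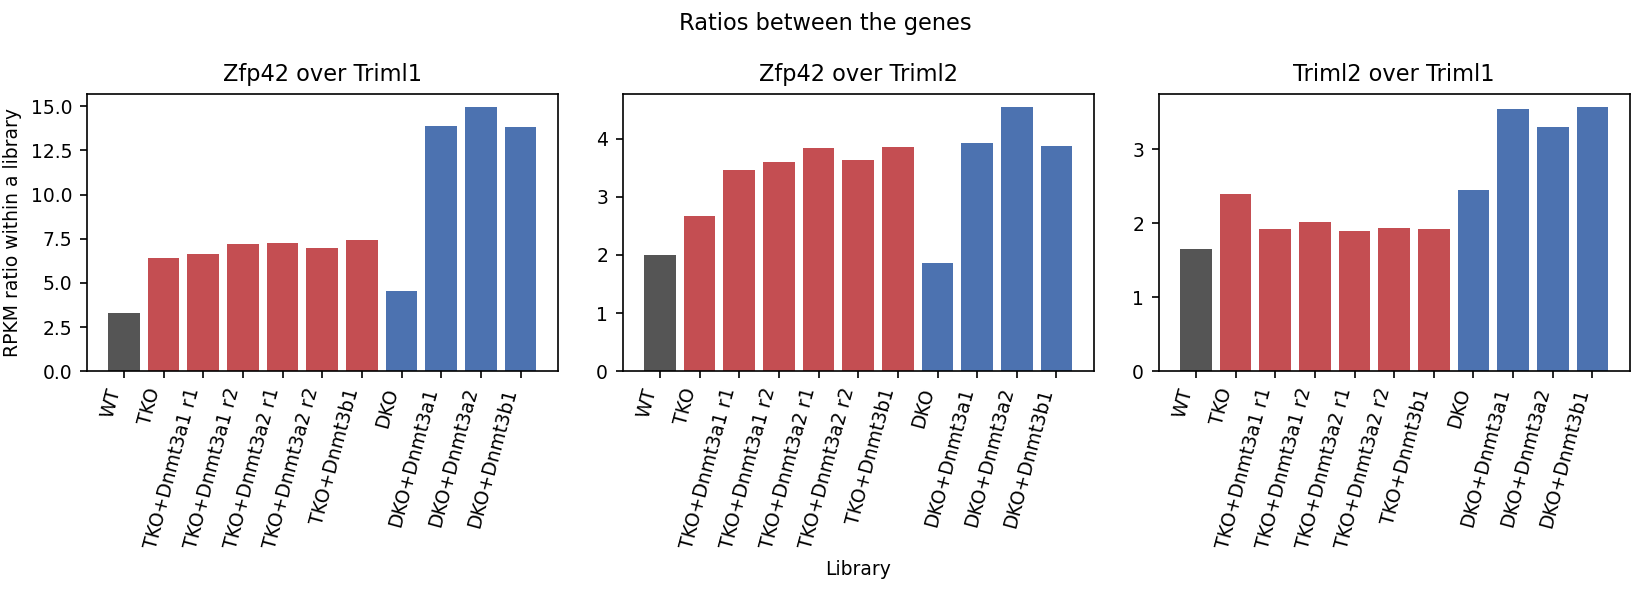
Ratio of RPKM values within each library for the 3 pairs of genes; each bar is 1 library, starting at 0, with WT in grey, the TKO family in red and the DKO family in blue. The 3 DKO add-back lines have the highest Zfp42 over Triml1 ratios, 13.9 to 15.0, against 3.29 to 7.41 elsewhere.

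On average Dnmt3b1 lines had lower values than Dnmt3a lines for all 3 genes, and none of these differences passed. Dnmt3b1 minus the mean of the Dnmt3a isoforms was -0.33 ± 0.23 for Zfp42, -0.35 ± 0.15 for Triml2 and -0.39 ± 0.18 for Triml1 (limma, adjusted p = 0.330, 0.138 and 0.158), in a comparison where 20.7% of genes passed (13.5% higher, 7.17% lower). In the same comparison 30 of 30 fibroblast markers passed as higher, with a median of 2.47, and 15 of 17 macrophage markers did, with a median of 2.46. Of the naive list, 10 of 27 passed as lower and none as higher, with a median of -0.35 against 0.01 over all genes. The values for the 3 genes rested on single libraries: Triml1 was at -0.16 without DKO+Dnmt3b1 and at -0.65 without TKO+Dnmt3b1, and Zfp42 at -0.20 without DKO+Dnmt3a2. The part of the feeder markers in the lower values of Zfp42, Triml1 and Triml2 was not tested.

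Likeness over the libraries was measured by Pearson's r and Spearman's rho of log2(RPKM + 0.5), as a description. The libraries fall into the families, and they share parent lines, so that r over all 11 mostly measures the step between families. Triml1 and Triml2 had r = 0.965 and rho = 1 over the 11 libraries, Triml2 and Zfp42 r = 0.960 and rho = 0.827, and Triml1 and Zfp42 r = 0.874 and rho = 0.827. Leaving out WT and DKO, the libraries farthest from the median of Triml1 and of Triml2, r over the other 9 was 0.994 for Triml1 with Triml2, 0.993 for Triml1 with Zfp42 and 0.993 for Triml2 with Zfp42. For Zfp42 the farthest were the DKO lines with Dnmt3a1 and Dnmt3a2, and without those r was 0.913 with Triml1 and 0.971 with Triml2. So r between Triml1 and Zfp42 depended on which libraries were left out. Within the 6 TKO family libraries, where levels spanned at most 1.74-fold, r was 0.924 for Triml1 with Triml2, 0.969 for Triml1 with Zfp42 and 0.822 for Triml2 with Zfp42, and rho was 1, 0.771 and 0.771. No step among these libraries was wider than that between libraries of 1 line, and their chromosome 8 medians ran from -0.21 to 0.25. The part of such shifts in r was not tested, and r of other genes was not set beside it. The 4 DKO family libraries are too few for a correlation; their values, given above, rank in the same order for Triml1 and Triml2 and in another order for Zfp42.

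Among 3721 genes that varied over the libraries, Triml2 was the third most like Zfp42 and the third most like Triml1. Zfp42 was 7th for likeness to Triml2 and 24th for likeness to Triml1, Triml1 was 6th for Triml2, and it was 44th for Zfp42. These ranks use all 11 libraries, among them the WT and TKO libraries that chose the 3 genes, so that they are no independent result. Of the 3469 other genes compared, 12 (0.346%) had a mean r with the 3 genes of 0.9 or more. The highest was Evc (0.963), whose product sits in the cilium, with 6.87 RPKM in WT, 2.21 to 2.87 in the TKO family and 5.50 to 5.85 in the DKO family. Kbtbd11, a BTB and kelch domain gene that is also on chromosome 8, had 0.960, with 5.58 RPKM in WT, 0.131 to 0.253 in the TKO family and 2.30 to 4.06 in the DKO family. Nhs (0.953), Rps15a-ps6 (0.950) and Dnmt1 itself (0.949) came next. Most like Zfp42 alone were the kinase gene Hunk (0.971), Emb (0.959), which encodes the membrane glycoprotein embigin, and Rps15a-ps6 (0.957). Hunk shared with Zfp42 the higher values in the DKO add-back lines, 12.7 to 14.2 RPKM against 8.18 in DKO. Most like Triml1 were Kbtbd11 (0.976), Nhs (0.969) and Adam23 (0.962), and most like Triml2 were Kbtbd11 (0.981), Evc (0.981) and Rps15a-ps6 (0.969).

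The order seen in the 3 genes, with WT and every DKO family library above every TKO family library, was found in 278 of 14229 genes tested (1.95%), and on chromosome 8 in 51 of 774 (6.59%). The reverse order was found in 702 genes (4.93%). Where the gap was also at least 2-fold on the RPKM + 0.5 scale, 10 genes were left (0.0703%), with Dnmt1, Fgf15, Ccnb1ip1, Rps15a-ps6 and Gm6682 beside 5 genes of chromosome 8: Zfp42, Triml1, Triml2, Kbtbd11 and Gm4975. The WT and TKO libraries that chose the members are part of this order, so that their place in it is no independent result.

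The 10 genes next on each side were examined to see how far the pattern reached. The next gene on the Triml1 side, 2810404M03Rik, and Adam26a on the Zfp42 side were listed at 0 in every library, and Adam26b reached 0.018 RPKM at most, so that the 3 genes stood between genes with little or no signal. Of the 20 neighbours, 10 reached 1 RPKM and could be tested in the family comparison. Of these, 5 passed as higher in the DKO family and 2 as lower, against 6.66% and 14.4% of all genes tested. Frg1, the nearest tested gene on the Triml1 side, was higher by 0.83 ± 0.13 (limma, adjusted p = 0.00548), with 77.3 RPKM in WT, 55.2 in TKO, 36.4 to 55.2 in the TKO family and 61.2 to 88.5 in the DKO family. Pcm1, which encodes a protein of centriolar satellites, was higher by 0.65 ± 0.12, with 17.5 to 27.3 RPKM in the TKO family and 31.0 to 34.5 in the DKO family. Mtus1 (0.75) and B430010I23Rik (0.59) were higher as well. Frg1, Pcm1, Mtus1 and B430010I23Rik shared the order of the 3 genes, with WT and every DKO family library above every TKO family library. That order was found in 1.95% of all genes tested and in 6.59% of those on chromosome 8. The remaining tested neighbours did not have it, and Fgl1 had the reverse order. Fat1, a giant protocadherin gene and the nearest tested gene on the Zfp42 side, was higher by 0.70 ± 0.21 (limma, adjusted p = 0.0420), but its values overlapped, at 9.40 to 22.7 RPKM in the TKO family and 15.3 to 25.3 in the DKO family. Slc7a2, a transporter of cationic amino acids, was lower, at -0.93, and so was Fgl1, at -0.91. Asah1, Pdgfrl and Gm6329 did not pass. All 7 calls held with the median of the chromosome subtracted; Slc7a2 no longer passed without TKO (limma, adjusted p = 0.0564), nor B430010I23Rik without the Dnmt3b1 libraries (limma, adjusted p = 0.0701). The changes of the 10 tested neighbours were thus between -0.93 and 0.83, against 1.97 to 2.73 for the 3 genes, and the difference between these was not tested.

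**Figure D4:**
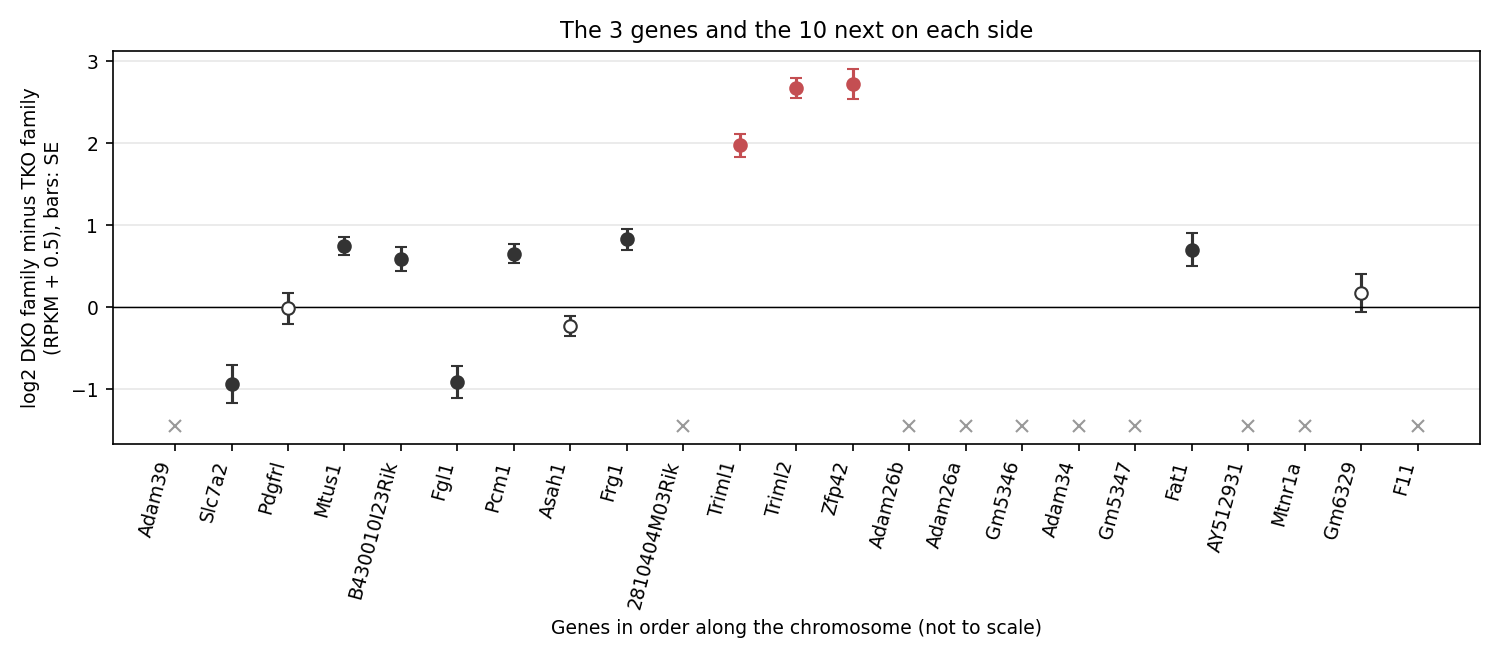
DKO family minus TKO family for Triml1, Triml2 and Zfp42 (red) and the 10 genes next on each side in chromosome order (not to scale), as log2(RPKM + 0.5) with bars of 1 SE; filled points passed at an adjusted p under 0.05, open points did not, and a cross at the bottom marks a gene under 1 RPKM in every library, which was not tested. The 3 genes lie at 1.97 to 2.73, and the 10 tested neighbours between -0.93 and 0.83.

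Gene groups tied to the 3 genes by function were set beside them in the family comparison. Of all genes tested, 6.66% passed as higher and 14.4% as lower there, with a median of -0.11, and the counts below are of genes that passed. Of the naive list, 4 of 27 were higher and 5 lower, with a median of -0.06. Klf2, a Krüppel-like factor of the naive network, was higher by 1.03 ± 0.10 (limma, adjusted p = 0.000711), with 151 RPKM in WT, 76.7 to 116 in the TKO family and 141 to 242 in the DKO family. Gbx2 was higher by 1.60, while Tbx3 (-1.08) and Pecam1 (-0.97) were lower. The Gbx2 difference rested on the DKO add-back lines, at 39.7 to 61.3 RPKM. In DKO itself Gbx2 was at 7.61 RPKM, within the 5.93 to 22.3 of the TKO family, and in WT it was at 6.94. Of 17 formative and primed epiblast genes tested, 4 were higher and 1 lower, with a median of 0.30. Among them Fgf15 was higher by 2.03 and Otx2 by 1.74, and Eomes was lower, at -1.20. The families overlapped in Otx2, at 7.06 and 7.14 RPKM in TKO+Dnmt3a1 and 5.31 to 13.0 in the DKO family. In the other TKO family libraries Otx2 was at 0.585 to 1.74 RPKM. Yy1, from which Zfp42 derives, moved the other way, at -0.94 ± 0.12 (limma, adjusted p = 0.00230), with 47.4 RPKM in WT, 43.3 to 56.9 in the TKO family and 21.1 to 34.2 in the DKO family. Its other retroposed relative Yy2 was higher by 0.43 ± 0.13 (limma, adjusted p = 0.0471). Of 10 genes for Rlim, the ubiquitin ligase that targets the Zfp42 protein, and for transcriptional silencing, Rif1 was higher by 0.56 and Ring1 was lower, at -0.52. Rlim itself did not pass, at 0.08 ± 0.09 (limma, adjusted p = 0.539), with 26.7 to 36.0 RPKM in the TKO family and 31.9 to 34.5 in the DKO family. Of 41 Trim family genes tested, the relatives of Triml1 and Triml2, 3 were higher and 10 lower, with a median of -0.08, and the largest changes were those of Trim62 (-1.36), Trim12a (-1.24) and Trim34a (-1.12). Of 19 genes of the 2-cell-like state tested, a rare state of ES cells in which early embryonic genes come on, 8 were higher and none lower, with a median of 0.93, led by Zscan4a (2.19) and Zscan4c (2.10), close copies that can share reads. The parent lines were both low here: Zscan4a was at 0.354 RPKM in TKO and 0.401 in DKO, against 6.09 in WT and 7.10 to 30.0 in the DKO add-back lines. In DKO minus WT, 19 of 19 had lower values.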

How the data were processed

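The authors deposited RPKM values, with 3 decimals, for 24016 genes and 11 libraries. PolyA RNA was made into libraries with TruSeq v2, per the labels' protocols, a kit that keeps no strand. The submitters' processing notes name bcl2fastq 1.8.4, STAR 2.4.0 and build mm9. The counting tool, gene lengths and the treatment of reads with several matches were not given in the sources used here. This bears on Zfp42, which has a pseudogene (Zfp42-ps1) with no row in the table. Depth was estimated from genes of up to 400 nt as the total at which most low RPKM values were whole reads of up to 5, within 0.05 (98.9% to 100%). Values were taken as log2(RPKM + 0.5), which makes changes of low genes smaller. Every gene that reached 1 RPKM somewhere was tested with limma 3.58.1 (eBayes with a trend, R 4.3.3), and adjusted p-values (Benjamini-Hochberg) below 0.05 were called. The family, any-enzyme and Dnmt3b1 comparisons used 10 libraries (WT left out) and additive terms for family and add-back (5 residual degrees of freedom, prior 3.79). The others used 9 group means (2 and 3.70), where libraries of unreplicated lines were assumed to vary like the replicated ones. The scripts were tested on simulated data.

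The members and gene lists were chosen with earlier results of these data known. Named besides the members were the 10 neighbours on each side by RefSeq order (GRCm38.p6, names and order only), the genes most like the members with an SD of at least 0.5 and no predicted or clone name (5 for the mean, 3 for each member), and up to 4 of the largest called changes of each list (3 of the Trim family). Ccnb1ip1, Gm6682 and Gm4975, of the 10 genes set apart by 2-fold, were named after their values were seen. Promoter letters and positions are RefSeq's on GRCm38.p6. The alternatives were other pseudocounts, filters and scalings, leaving out libraries, a replicate block and other fits.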

Additional observations from a re-analysis of the deposited data

How the results depend on the processing

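The family difference of the 3 genes kept its direction and passed in each of 21 alternatives. It ran from 1.87 to 2.08 for Triml1, 2.61 to 2.78 for Triml2 and 2.55 to 2.94 for Zfp42, with a highest adjusted p (limma) of 0.00888, 0.00442 and 0.00908. The Dnmt3b1 comparison kept its direction, without a call, in 20 alternatives, between -0.65 and -0.16 (Triml1), -0.46 and -0.25 (Triml2) and -0.45 and -0.20 (Zfp42), and r between the genes stayed between 0.848 and 0.970 in 11. Any enzyme put back called none of the 3 under any alternative (lowest adjusted p, limma, 0.0579), and for Zfp42 it turned to -0.19 without DKO. With the median of the chromosome subtracted, these values changed sign: TKO+Dnmt3a1 minus TKO to 0.17 (Triml1) and 0.26 (Zfp42), TKO+Dnmt3a2 minus TKO to 0.16 and 0.30, TKO+Dnmt3b1 minus TKO to 0.0199 (Zfp42), and the 3 TKO lines minus TKO to 0.0528 (Triml1) and 0.19 (Zfp42). So did the difference of add-back changes, to -0.0225 (Triml2), and TKO+Dnmt3a2 minus TKO+Dnmt3a1, to -0.00942 (Triml1) and -0.0433 (Triml2). The last also changed sign with quantile normalization, to -0.0130 (Triml1) and -0.0291 (Triml2), and with median ratio scaling to -0.0314 (Triml2), which took DKO+Dnmt3a2 minus DKO for Triml2 to 0.00990. The cause was not tested. Leaving out 1 replicate, TKO+Dnmt3a2 minus TKO+Dnmt3a1 ran from -0.16 to 0.31 (Triml1), -0.17 to 0.25 (Triml2) and -0.0640 to 0.31 (Zfp42), and for Zfp42 TKO+Dnmt3a1 minus TKO ran from -0.37 to 0.0103 and TKO+Dnmt3a2 minus TKO from -0.16 to 0.0550.

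The replicate numbers do not pair the libraries (r of their deviations 0.0859, 2 pairs). With a replicate block the family difference was 1.95, 2.63 and 2.65 for Triml1, Triml2 and Zfp42, and the 1 call gained was Triml1 in DKO+Dnmt3b1 minus DKO (-1.21, limma, adjusted p = 0.0495); no other call of the 3 changed. Under the block 10.1% of all genes passed in that comparison (1441, against 0 as reported), and 1002, 79, 479 and 7 genes passed in the comparisons of TKO+Dnmt3b1, DKO+Dnmt3a1, DKO+Dnmt3a2 and TKO+Dnmt3a1 with their parents, against 0 to 4 as reported. The counts over all genes moved more. For the family comparison, 2990 genes became 1905 without a filter, 1689 with the block, 1688 with each line counted once, 1802 with 9 group means, 1096 without DKO+Dnmt3a1, 651 without DKO+Dnmt3a2, 1788 without TKO+Dnmt3b1, 1790 without DKO+Dnmt3b1, 1794 without both and 1817 without the second TKO+Dnmt3a1 replicate. For any enzyme, 559 became 138 without a filter, 313 with the chromosome median, 1415 with the block, 867 without TKO, 3 with each line counted once or without both Dnmt3b1 libraries, 0 with 9 group means or without DKO, 2 without TKO+Dnmt3b1, DKO+Dnmt3a1 or DKO+Dnmt3a2, 3 without DKO+Dnmt3b1, and 3 to 820 without 1 replicate. For Dnmt3b1, 2943 became 77 without TKO+Dnmt3b1, 179 without DKO+Dnmt3b1, 1861 without DKO+Dnmt3a2, 1898 with 9 group means and 1915 to 3338 without 1 replicate. Counting each line once in the fit of 9 group means was not run, since no residual degrees of freedom remain. Of the 9 groups, 7 had 1 library.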
